A study of Homo sapiens with 60 samples.

Results

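The LXR sterol export genes ABCA1, ABCG1, ABCG5, ABCG8, MYLIP, LPCAT3, SMPDL3A and PLTP were followed in HepG2 cells, a human hepatocellular carcinoma line, after 24 h with herbal extracts. They were found by symbol and were 8 of the 60675 Ensembl gene identifiers counted, with 1 row each. Cells received water extracts of the decoctions Yijin-tang and Soshiho-tang, or ethanol extracts of Liriopis seu Ophiopogonis Tuber (liriope), Schisandrae Fructus (schisandra), Longan Arillus (longan), Zizyphi Semen (zizyphus), Polygalae Radix (polygala) or Aucklandiae Radix (aucklandia). Low, medium and high doses were 20, 100 and 500 µg/mL for the first 6 extracts. Polygala was given at 10, 50 and 250 µg/mL, whereas aucklandia was given at 11.2, 56 and 280 µg/mL. The vehicle was DMSO in 3 libraries, and the labels and the series text disagree on its share. Each dose had 1 library for polygala and aucklandia, 2 for Soshiho-tang (soshiho) and 3 for Yijin-tang (yijin) and the other 4 extracts, 60 in all. The labels do not give the cultures behind the replicates; p-values here speak of spread among libraries only, which may be technical.

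LXRα and LXRβ (NR1H3 and NR1H2) are nuclear receptors that bind oxysterols and, with a retinoid X receptor, activate genes that move surplus cholesterol out of cells. In liver their targets load cholesterol onto HDL, send sterols into bile, limit uptake through the LDL receptor and remodel membrane phospholipids. All 8 genes are known LXR targets in human cells, some of them mainly in macrophages.

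Library totals ran from 20.7 M to 38.0 M expected counts. Hepatocyte markers (ALB, APOB, TTR, AFP and SERPINA1) summed to 34546 to 48155 CPM, counts scaled to library size, in the 54 replicated libraries. The 5 macrophage markers summed to 32.2 to 56.3 CPM in these libraries: MARCO was at 0 in every library, PTPRC, CSF1R and CD14 reached at most 0.09, 0.144 and 2.8 CPM, and CD68 reached 54.1 CPM. The 4 fibroblast markers summed to 6.42 to 18.2 CPM, mostly PDGFRB (up to 17.7 CPM), and the 3 endothelial markers to 4.04 to 6.22 CPM, mostly PECAM1 (up to 5.30 CPM). Replicate 1 of schisandra at the low dose and replicate 2 of liriope at the high dose stood farthest from their groups, with SDs of the log2 difference of 0.26 and 0.24, against 0.14 to 0.19 for the other 52. Because the RNA was bulk, fewer cells and less RNA per cell cannot be told apart.

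Promoter sequence is shown for ABCA1, the ABCG5 and ABCG8 pair, and MYLIP. The 250 bases upstream of the RefSeq start of ABCA1 (GRCh38.p14, chr9:104928156-104928405, minus strand) hold, in capitals, a match to the LXR element, a repeat of AGGTCA with 4 free bases (NNNN) between the copies, read on the other strand with 2 mismatches in its 12 fixed letters, 69 to 54 bases upstream of the start. ABCG5 and ABCG8 are read away from each other, and the whole 131 bases between their starts (chr2:43838840-43838970, plus strand) hold 1 AGATAA, the sequence that GATA factors bind, in capitals as its complement. The 250 bases upstream of MYLIP (chr6:16128836-16129085, plus strand) hold CCAAT at 2 places, in capitals as its complement ATTGG.
ABCA1: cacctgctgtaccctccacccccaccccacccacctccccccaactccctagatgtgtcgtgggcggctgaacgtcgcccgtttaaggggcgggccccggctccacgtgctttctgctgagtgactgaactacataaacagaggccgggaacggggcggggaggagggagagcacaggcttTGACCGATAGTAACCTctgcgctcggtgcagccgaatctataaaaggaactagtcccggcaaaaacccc
ABCG5/ABCG8: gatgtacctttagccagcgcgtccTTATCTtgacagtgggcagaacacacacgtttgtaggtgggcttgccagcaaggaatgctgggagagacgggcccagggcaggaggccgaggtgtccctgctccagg
MYLIP: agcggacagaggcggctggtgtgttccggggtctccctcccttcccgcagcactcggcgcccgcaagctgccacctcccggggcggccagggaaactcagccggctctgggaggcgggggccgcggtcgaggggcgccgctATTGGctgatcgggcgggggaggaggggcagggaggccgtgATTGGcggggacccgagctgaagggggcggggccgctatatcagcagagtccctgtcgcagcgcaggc
Both strands of the 250 upstream bases of 35116 RefSeq promoters were searched. The LXR element with up to 2 mismatches is in 2.03% (0.0142% without mismatch), AGATAA in 9.17% and CCAAT in 32.0%. The 131 bases between ABCG5 and ABCG8 are shorter than the stretches searched. No motif overlaps another, and a match describes letters only. RefSeq promoters matched 6 of the 8 genes, and ABCG1 and SMPDL3A had none in the table. Among the 6, ABCA1 alone had a match to the LXR element, and LPCAT3, not shown, also had CCAAT.

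In vehicle the genes stood in a wide order of level per transcript length. LPCAT3, which puts polyunsaturated chains into membrane phospholipids, was highest at 39.5 ± 0.48 CPM per kilobase (SD, n = 3), and ABCA1, which exports cholesterol to apolipoprotein A-I, followed at 15.4 ± 0.39. PLTP, which transfers phospholipids among lipoproteins, was at 11.3 ± 0.10 CPM per kilobase. ABCG5 was at 6.25 ± 0.71 and SMPDL3A, a nucleotide phosphodiesterase, at 5.47 ± 0.51 CPM per kilobase, which do not differ beyond their spread. MYLIP, which marks the LDL receptor for breakdown, was at 2.95 ± 0.39 and ABCG8 at 2.64 ± 0.22 CPM per kilobase, likewise within their spread. The lengths are those of the GENCODE 29 transcript with the longest coding sequence; over all exons ABCG8 (1.86) lies above MYLIP (1.62). ABCG1, the macrophage exporter of cholesterol to HDL (chr21:42199689-42297244, plus strand), had 37 counts in all 60 libraries, at most 3 in any and 0 in 28, and could not be tested. The other 7 passed the filter on low counts.

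**Figure D1:**
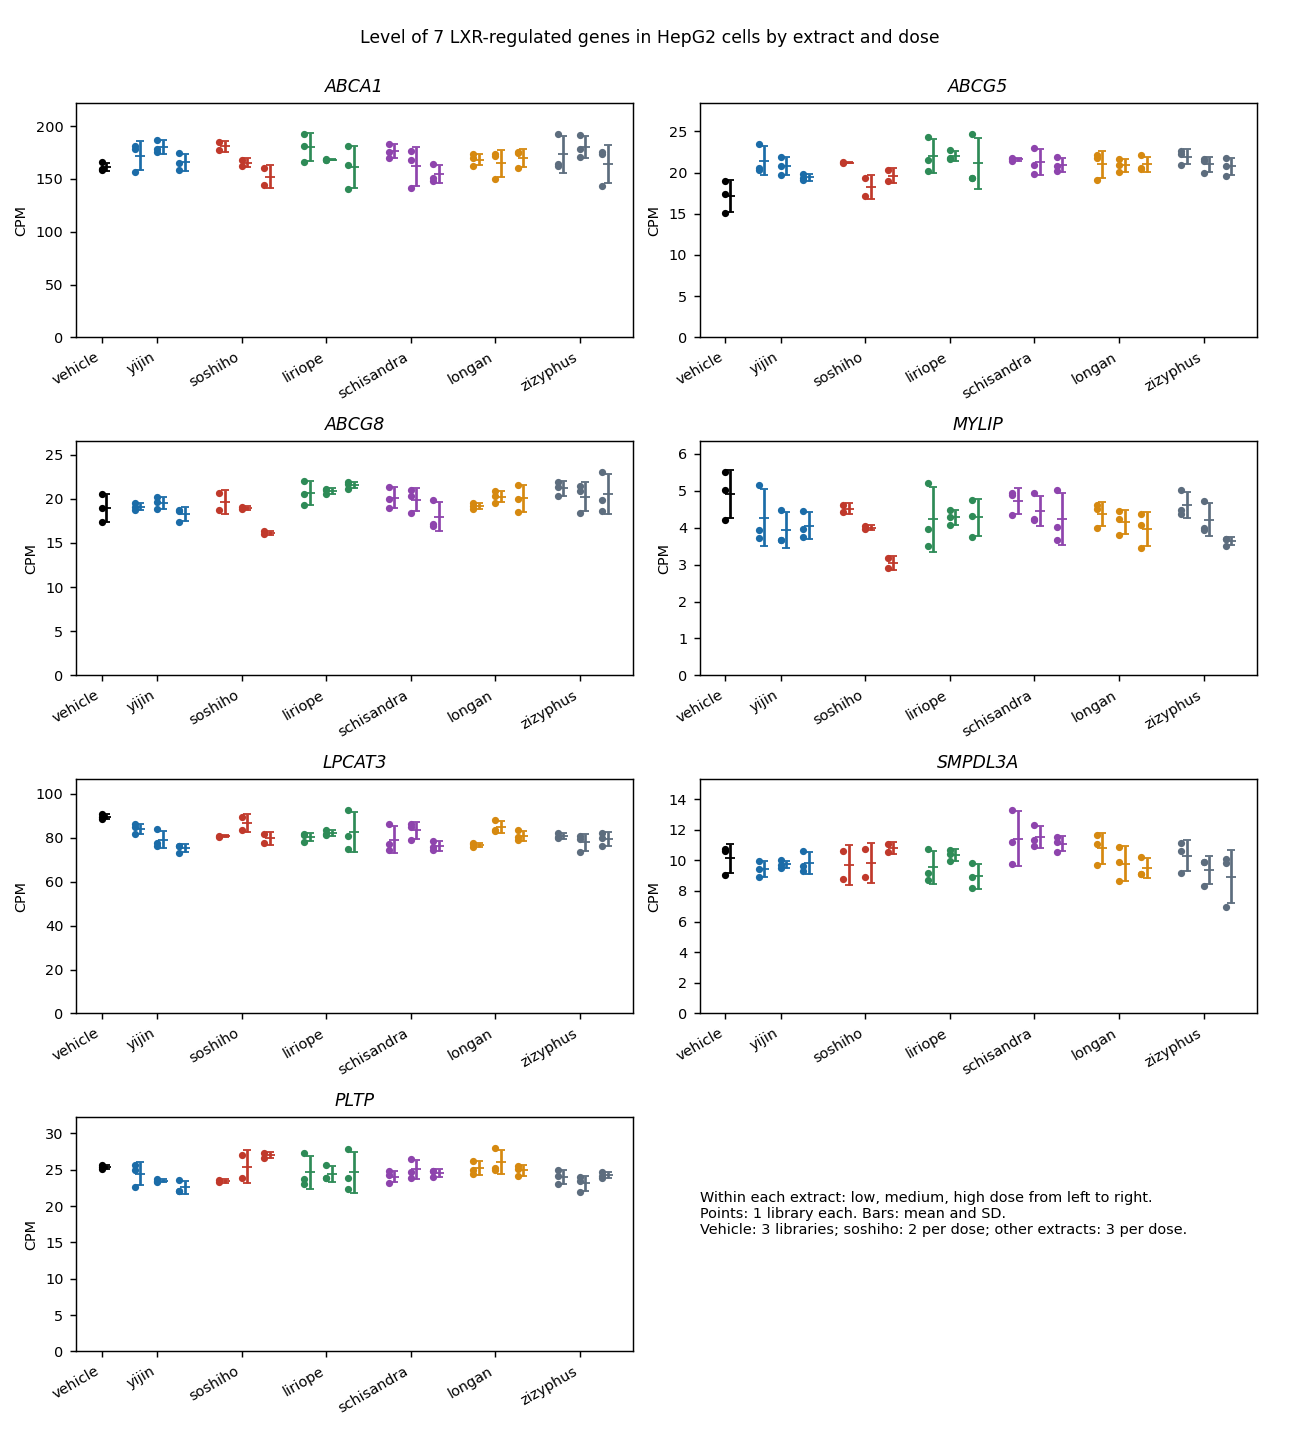
CPM (linear axis from 0) of the 7 tested genes by extract, with points for libraries and bars for mean and SD; vehicle is at the left and each extract runs from low to high dose. Soshiho at the high dose has the lowest MYLIP mean (3.04 CPM) and the lowest ABCG8 mean (16.1 CPM) of all 19 groups.

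The dose response was read as high against low dose, because all doses of an extract share 1 sample code set while vehicle has its own. Of the 7 genes, 2 fell with soshiho, MYLIP and ABCG8, where 5.08% of 16924 genes were called (edgeR quasi-likelihood test, Benjamini-Hochberg adjusted p under 0.05). None of the 7 was called with yijin (7.79% of all genes), liriope (0.0295%), schisandra (7.33%), longan (0.0177%) or zizyphus (0.0355%). At an unadjusted p under 0.05, 1 member passed with yijin (3110 of the 16924 genes) and 4 with soshiho (2537). There were 2 with schisandra (3385), 1 with zizyphus (787), and 0 with liriope (1360) or longan (395). DESeq2 called 1 of the 7 with yijin (LPCAT3) and 0 with each of the other 5 extracts. The median log2 change of the 7 was -0.11 with soshiho and between -0.075 and 0.01 with the other 5, beside medians over all genes of -0.006 to 0.006.

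MYLIP (chr6:16129125-16148248, plus strand) had 3.18 and 2.90 CPM in soshiho high-dose libraries, 3.95 and 4.04 CPM at the medium dose, and 4.42 and 4.62 CPM at the low dose. The doses did not overlap, and both high-dose values were below every vehicle library (5.51, 5.01 and 4.22 CPM). The share of all genes whose libraries did not overlap was not counted, here or for the other members. The log2 change was -0.57 ± 0.17 for high against low dose (SE; 95% interval -0.91 to -0.23; edgeR adjusted p = 0.0341) and -0.70 ± 0.16 for high dose against vehicle (adjusted p = 0.000727). Against vehicle the fall was called without any 1 of the 5 libraries (highest adjusted p 0.0269); against the low dose it was lost without any 1 of the 4 (0.112 to 0.299), without the filter on low counts (0.0744) and with DESeq2 (0.056). MYLIP was also below the low dose in every zizyphus high-dose library, at 3.68, 3.51 and 3.70 CPM against 5.02, 4.47 and 4.36 CPM, with a log2 change of -0.34 ± 0.13 that was not called (edgeR adjusted p = 0.955). In the other 4 extracts its log2 change for high against low dose lay between -0.15 and 0.01.

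ABCG5 and ABCG8 form, as a pair, the transporter that secretes plant sterols and cholesterol into bile and gut. ABCG8 (chr2:43831942-43882987, plus strand) had 16.0 and 16.3 CPM in soshiho high-dose libraries, 19.1 and 18.8 CPM at the medium dose, and 20.6 and 18.7 CPM at the low dose. The high dose lay below the other doses and below vehicle (17.35, 19.005 and 20.505 CPM). The log2 change was -0.29 ± 0.088 against the low dose (edgeR adjusted p = 0.0475) and -0.23 ± 0.082 against vehicle (0.0385). The first was lost without any 1 of its 4 libraries (0.0604 to 0.466), without the filter on low counts (0.126) and with DESeq2 (0.0569). The second was lost without the filter (0.115), with only the groups compared (0.0742), with library size alone (-0.14; 0.278), and without vehicle replicate 2 (0.0709) or 3 (0.168) or high-dose replicate 2 (0.186) or 3 (0.12). ABCG5 (chr2:43812472-43838865, minus strand) has its RefSeq start on the other side of the 131 bases printed above. It had 20.28 and 18.96 CPM at the soshiho high dose, against 21.3 and 21.1 CPM at the low dose. Its log2 change was -0.11 ± 0.097 (95% interval -0.31 to 0.08, edgeR adjusted p = 0.681). Over all 6 extracts ABCG5 changed by -0.14 to -0.01 on the log2 scale between high and low dose, none called.

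ABCA1 (chr9:104781002-104928237, minus strand) kept within 141 to 193 CPM over the 54 replicated libraries. It had 160 and 144 CPM in soshiho high-dose libraries against 185 and 177 CPM at the low dose, and 148, 151 and 164 CPM in schisandra high-dose libraries against 175, 170 and 183 CPM at the low dose. High-dose libraries lay below low-dose libraries in both extracts, but the log2 changes, -0.25 ± 0.097 with soshiho and -0.19 ± 0.079 with schisandra, were not called (edgeR adjusted p = 0.161 and 0.149). Both were called without the filter on low counts (0.0184 and 0.0119), and the soshiho change also with only the groups compared (0.00418). DESeq2 called neither.

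LPCAT3 (chr12:6976186-7018510, minus strand) had 76.5, 76.0 and 73.1 CPM in yijin high-dose libraries against 84.7, 81.5 and 86.1 CPM at the low dose, with no overlap. Its log2 change of -0.16 ± 0.053 had an adjusted p of 0.0504 in edgeR and 0.0421 in DESeq2. PLTP (chr20:45898621-45912155, minus strand) stood higher with soshiho, at 26.7 and 27.3 CPM in high-dose libraries against 23.3 and 23.7 CPM at the low dose. That log2 change of 0.20 ± 0.078 was not called (edgeR adjusted p = 0.153), but was called with only the groups compared (0.046). SMPDL3A (chr6:122789049-122809720, plus strand) changed by -0.21 to 0.15 on the log2 scale over the 6 extracts, with 95% bounds from -0.44 to 0.43 and none called.

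**Figure D2:**
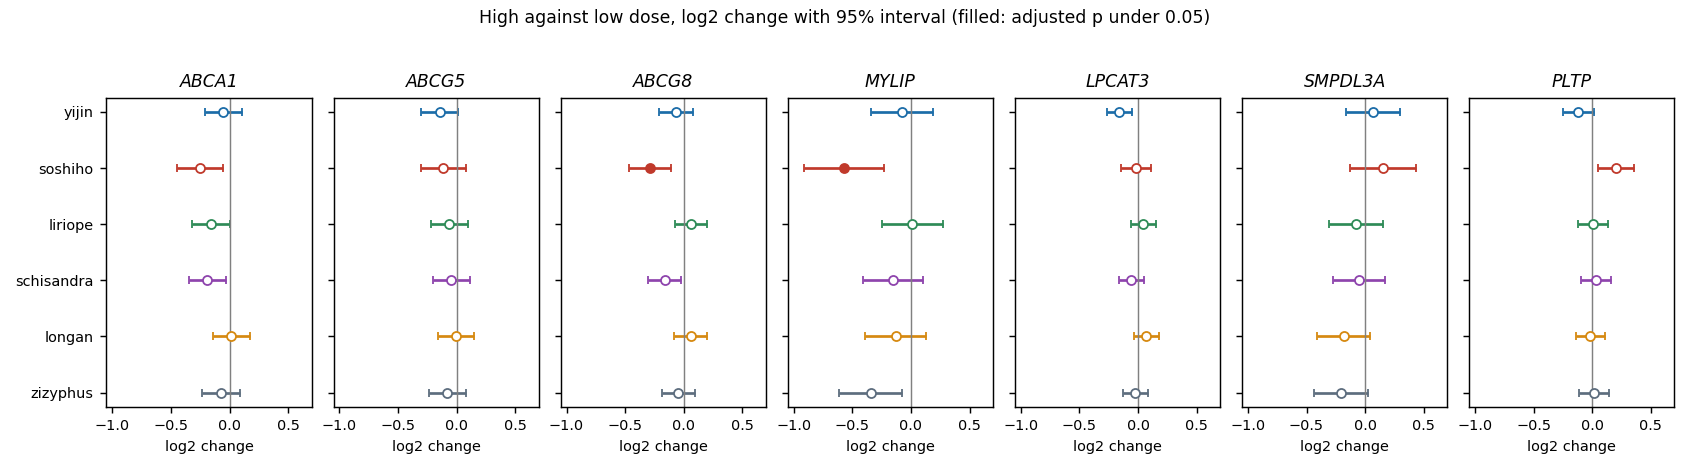
Log2 change of each gene (x axis) for high against low dose by extract (y axis), with 95% intervals; filled points have an edgeR adjusted p under 0.05. Only MYLIP (-0.57) and ABCG8 (-0.29) with soshiho are filled, and most intervals cross 0.

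At the medium dose 0 of the 7 genes were called against the low dose in any of the 6 extracts, by edgeR or DESeq2. All genes called were 0.00591% with yijin and with zizyphus, 0.118% with soshiho, 0.0709% with schisandra, and 0 genes with liriope and longan. At an unadjusted p under 0.05, 1 member passed with soshiho (ABCG5, -0.22) and 1 with longan (LPCAT3, 0.14), both log2 changes. Of all 16924 genes, 955 passed with soshiho and 411 with longan. The members' log2 changes ran from -0.22 to 0.14.

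Whether extracts of the same sample code set differ in their dose response was tested as a difference of log2 changes. With soshiho minus yijin (0.88% of all genes called), PLTP differed by 0.32 (95% interval 0.12 to 0.52; edgeR adjusted p = 0.153) and MYLIP by -0.49 (-0.93 to -0.06; 0.455), and 0 of 7 were called. With schisandra minus liriope (4.11% of all genes) and zizyphus minus longan (0.00591%), 0 of 7 were called as well. DESeq2 also called 0 in these 3 comparisons, and 2, 1 and 0 members had an unadjusted p under 0.05 in edgeR. Of all 16924 genes, 1473, 3097 and 412 did.

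Against vehicle, ABCG5 was higher at every dose compared and LPCAT3 was lower. Extract libraries were all set against the same 3 vehicle libraries, so they are not separate checks. ABCG5 lay above all 3 (15.07, 17.36 and 18.96 CPM) in 49 of 51 extract libraries, a count not made for all genes. It rose at the high dose with liriope, schisandra, longan and zizyphus (log2 changes 0.28 to 0.30; edgeR adjusted p = 0.00601 to 0.0116) and was 0.18 with yijin and 0.20 with soshiho, not called. At the low dose, a comparison added after the data were seen, it rose with all 6 extracts (0.30 to 0.36; adjusted p = 0.0012 to 0.0157). The extract and the separate sample code of vehicle cannot be told apart here. Vehicle replicate 1 was the lowest of the 3: without it ABCG5 was not called at the high dose with liriope (0.103), schisandra (0.103), longan (0.114) or zizyphus (0.153), nor at the low dose with yijin (0.0731), soshiho (0.14) or longan (0.0953). The call was also lost without replicate 1 of the high dose with liriope (0.158) and zizyphus (0.0817), replicate 3 of the low dose with yijin (0.055), and replicate 2 (0.112) or 3 (0.108) of the low dose with soshiho. With only the groups compared the call was lost at the high dose with liriope (0.184) and zizyphus (0.0587) and at the low dose with schisandra (0.0782). Without vehicle replicate 3 ABCG5 was called with yijin (0.031) and soshiho (0.0378) at the high dose.

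LPCAT3 had 89.4, 88.7 and 90.8 CPM in vehicle. It was below all 3 in 49 of 51 extract libraries, a count not made for all genes and again not 51 separate checks. At the high dose it fell with yijin (-0.25 ± 0.053; edgeR adjusted p = 0.000333), schisandra (-0.23; 0.00105), zizyphus (-0.17; 0.0178), soshiho (-0.17; 0.035) and longan (-0.15; 0.039), as log2 changes; liriope had -0.11 (0.138). At the low dose it fell with longan (-0.22; 0.0021), schisandra (-0.18; 0.0121), liriope (-0.16; 0.0335) and zizyphus (-0.15; 0.0463). With libraries scaled by size alone, ABCG5 passed in all 12 comparisons (0.29 to 0.50), while LPCAT3 passed at the high dose with yijin and schisandra only. Its log2 changes with that scaling were -0.15 to -0.02 over the 11 comparisons in which some setting called it. That scaling placed the median of all genes at 0.10 to 0.13 for the high dose and 0.13 to 0.14 for the low dose, and raised the share of calls that were higher to between 77.4% and 91.5%. Without the filter on low counts LPCAT3 was not called at the high dose with soshiho (0.111), longan (0.154) or zizyphus (0.0652), nor at the low dose with liriope (0.126), schisandra (0.0794) or zizyphus (0.166). With only the groups compared it was not called with zizyphus at the high dose (0.0595), nor with liriope (0.0623), schisandra (0.163) or zizyphus (0.0994) at the low dose. Leaving out any 1 library kept the calls with yijin and schisandra at the high dose and longan at the low dose. The others were lost without any 1 library with soshiho (0.0538 to 0.267), liriope (0.0512 to 0.126) and low-dose zizyphus (0.0695 to 0.11), without any but replicate 3 of the high dose with longan (0.0578 to 0.135), without replicate 3 of the high dose with zizyphus (0.0934), and without replicate 2 of the low dose with schisandra (0.0876); liriope at the high dose passed without its replicate 2 (0.00239).

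LPCAT3 shares 3100 of its 4725 exon bases with EMG1 on the opposite strand. EMG1 rose against vehicle in 12 of 12 comparisons (log2 changes 0.21 to 0.37; edgeR adjusted p = 4.67e-06 to 0.00927). The library kit was directional, the strand setting of the counting is not given in the sources used here, and the part of EMG1 reads in the LPCAT3 values was not tested. ABCG5 and ABCG8 share 137 exon bases and PLTP shares 200 of its 2541 with CTSA, all on opposite strands; CTSA fell against vehicle at the yijin high dose (-0.14; adjusted p = 0.0142).

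The high-dose members called against vehicle were 2 of 7 with yijin (23.4% of all genes), 3 with soshiho (21.8%), 1 with liriope (16.8%), 2 with schisandra (22.1%), 2 with longan (19.6%) and 3 with zizyphus (16.9%). At the low dose they were 1 with yijin (15.2%) and soshiho (11.9%) and 2 with liriope (16.6%), schisandra (21.5%), longan (20.1%) and zizyphus (16.5%). The remaining calls were MYLIP with zizyphus (-0.44 ± 0.13; edgeR adjusted p = 0.0164) and PLTP with yijin (-0.17 ± 0.064; 0.0461), both at the high dose. MYLIP with zizyphus was lost without vehicle replicate 1 (0.131) or high-dose replicate 2 (0.054), with only the groups compared (0.0535) and with library size alone (-0.32; 0.0811). PLTP with yijin was lost without any vehicle replicate (0.0759 to 0.101), without high-dose replicate 2 (0.14) or 3 (0.134), without the filter (0.239), with DESeq2 (0.056), and with library size alone, where its log2 change was -0.07 (0.401). Without vehicle replicate 3, MYLIP was called with yijin (0.0449) and longan (0.0363) and ABCG8 was called, higher, with liriope at the high dose (0.0306) and zizyphus at the low dose (0.0493). With library size alone ABCA1 was called higher at the low dose with soshiho, liriope, schisandra and zizyphus (0.23 to 0.30; edgeR adjusted p = 0.0102 to 0.0471), PLTP with soshiho at the high dose (0.18; 0.031) and SMPDL3A with schisandra at the low dose (0.31; 0.0222). ABCG8 was then called higher at the high dose with liriope, longan and zizyphus (0.20 to 0.28; 0.00609 to 0.0469) and at the low dose with liriope, schisandra and zizyphus (0.22 to 0.29; 0.00381 to 0.0254). All these comparisons share the 3 vehicle libraries.

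**Figure D3:**
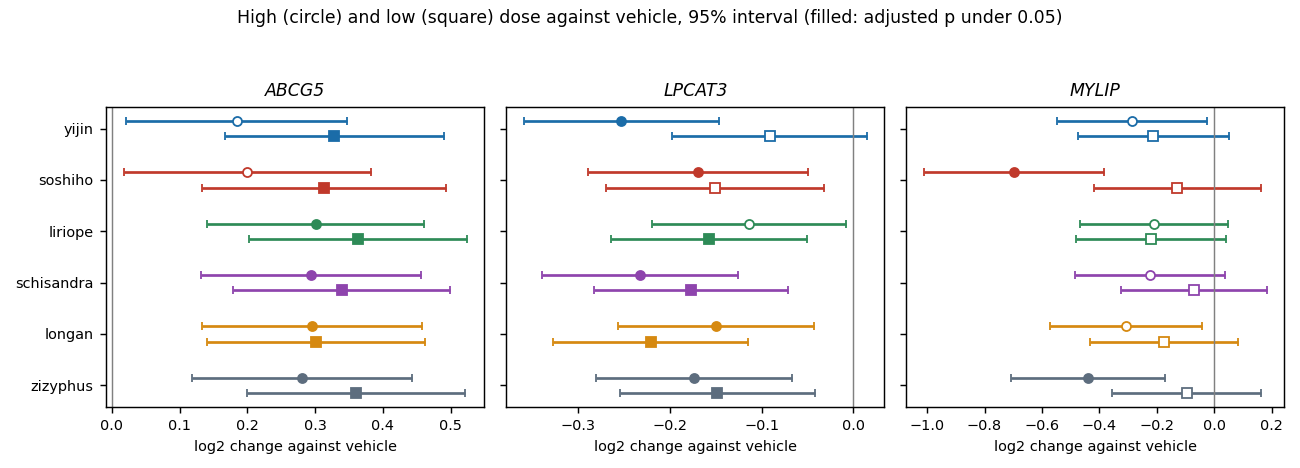
Log2 change against vehicle (x axis) of ABCG5, LPCAT3 and MYLIP for the high (circles) and low dose (squares) of each extract, with 95% intervals; filled symbols have an edgeR adjusted p under 0.05. ABCG5 is above 0 and LPCAT3 below 0 at both doses of every extract, while MYLIP with soshiho is lower at the high dose (-0.70) than at the low dose (-0.13).

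With polygala and aucklandia there was 1 library per dose, so differences have no replicate check and are given as levels with 95% Poisson intervals, which cover counting error only. At the aucklandia high dose the members moved in opposite directions. MYLIP was 24.8 CPM (22.8 to 27.0) at the high dose, 3.92 at the medium and 3.58 (2.90 to 4.36) at the low dose, a 6.94-fold difference of high over low. SMPDL3A was 27.3 CPM (25.2 to 29.6) at the high dose against 9.96 (8.80 to 11.2) at the low dose, 2.75-fold. ABCA1 was 50.9 CPM (48.03 to 53.95) at the high dose against 157 (152 to 161) at the low dose, and ABCG8 was 3.799 CPM (3.04 to 4.69) against 21.5 (19.8 to 23.3). ABCG5 was 8.79 CPM at the high dose against 21.2 at the low dose, LPCAT3 55.1 against 84.0, and PLTP 19.6 against 23.1.

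At the polygala high dose PLTP was 0.208 of its low-dose level, at 5.22 CPM (4.35 to 6.20) against 25.0 (23.0 to 27.2) at the low dose, and it was 19.7 CPM (18.0 to 21.5) at the medium dose. SMPDL3A was 4.32 CPM (3.54 to 5.23) at the high dose against 10.4 (9.14 to 11.8) at the low dose, and ABCG8 8.72 against 20.2 CPM. LPCAT3 was 49.0 CPM at the high dose against 92.9 at the low dose, and ABCG5 14.9 against 22.0 CPM. ABCA1 was 189 CPM (184 to 195) against 165 (160 to 170), and MYLIP 7.05 CPM (6.04 to 8.19) against 3.72 (2.97 to 4.60). SMPDL3A was thus above its low-dose level with aucklandia and below it with polygala, at doses that differ (280 and 250 µg/mL).

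A change of at least 1.5-fold on the log2(CPM + 1) scale was counted among genes of at least 10 CPM in either library. For high against low it held for 6 of 7 members with aucklandia (44% of 9873 such genes) and for 4 of 6 with polygala (38.6% of 9796). For medium against low it held for 0 of 6 members with aucklandia (0.576% of 9548 such genes) and with polygala (0.797% of 9532). Against the vehicle mean it held for 6 of 7 with aucklandia (43.5%) and 4 of 6 with polygala (40.9%). Hepatocyte markers summed to 17940 CPM at the aucklandia and 16534 CPM at the polygala high dose, against 43614 to 48155 CPM in vehicle. The macrophage markers summed to 68.8 CPM with aucklandia and 14.5 CPM with polygala, against 50.3 to 52.2 CPM in vehicle. CD68 was 68.0 CPM with aucklandia and 13.9 CPM with polygala, against 48.5 CPM in vehicle, while CD14 was 0.707 and 0.652 CPM, against 2.41 CPM in vehicle. The fibroblast markers summed to 21.0 CPM with aucklandia and 7.01 CPM with polygala, against 13.2 to 14.4 CPM in vehicle, and the endothelial markers to 6.45 and 1.55 CPM, against 5.01 to 5.91 CPM. The part of these shifts in the members' levels was not tested.

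**Figure D4:**
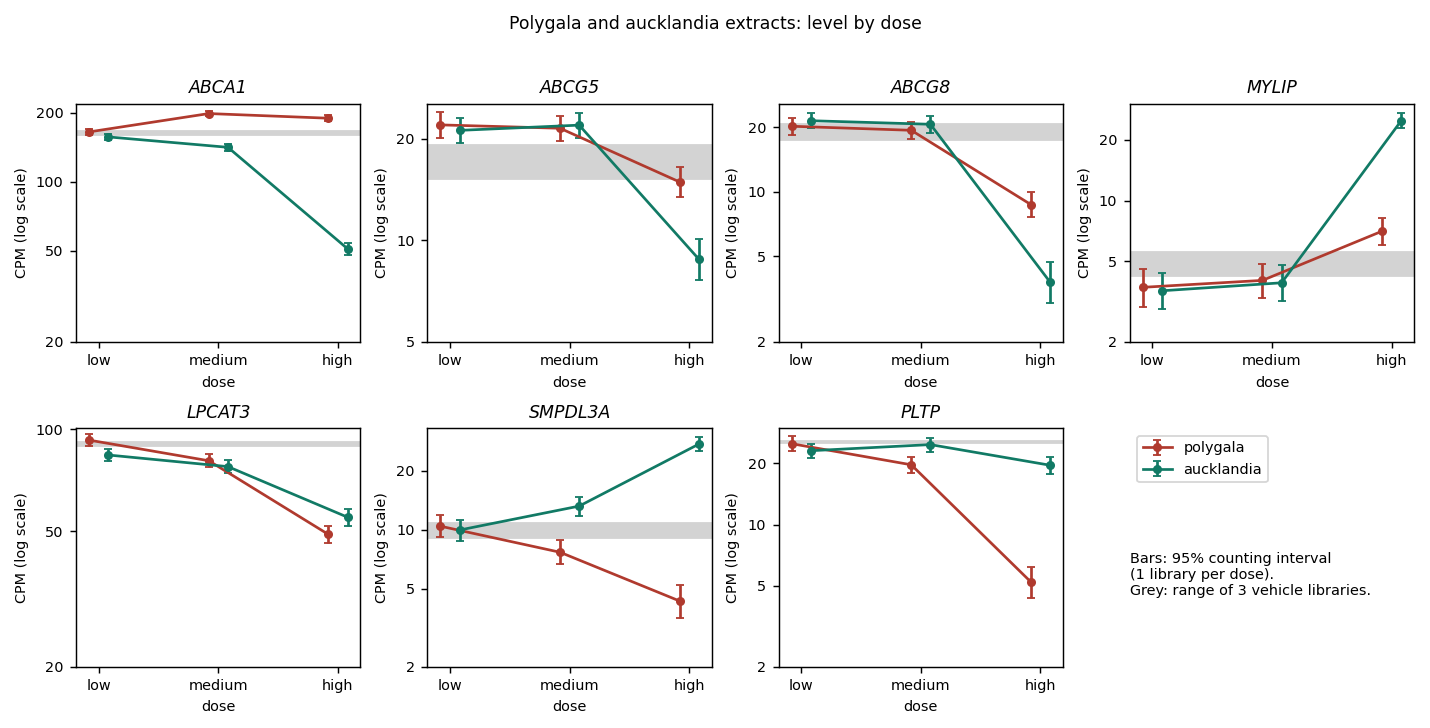
CPM (log axis) by dose for polygala and aucklandia, 1 library per point, with 95% Poisson intervals; grey bands are the range of the 3 vehicle libraries. MYLIP (24.8 CPM) and SMPDL3A (27.3 CPM) stand above the band at the aucklandia high dose, and PLTP (5.22 CPM) stands below it at the polygala high dose.

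Genes around the same pathway were taken from 7 lists, chosen with earlier results of these data known. The shares of all genes given beside the counts are therefore no test of the lists. The lists held 49 genes, 44 of them tested. Between high and low dose, 2 were higher and 13 lower with yijin (3.78% and 4.01% of all genes), 2 higher and 3 lower with soshiho (2.81% and 2.27%), and 4 higher and 7 lower with schisandra (3.92% and 3.4%). In edgeR 0 passed with liriope, longan or zizyphus, where 9, 0 and 7 had an unadjusted p under 0.05. Of all 16924 genes, 1360, 395 and 787 had one in these extracts. Results of DESeq2 and the other alternatives were not taken for these lists, so their calls rest on the main fit alone. Over all genes, schisandra calls at high against low dose were 1240 in that fit. They were 132 with only the groups compared and 731 without the libraries that stood apart. Soshiho calls were 860 in the main fit and 1707 with only the groups compared. Medians of the 44 log2 changes were -0.155, -0.03 and -0.02 with yijin, soshiho and schisandra.

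The receptors NR1H3 and NR1H2 were not called in any extract between high and low dose, and RXRA, their partner, fell with yijin (log2 change -0.19 ± 0.053; edgeR adjusted p = 0.0148). Of 8 other LXR targets tested, 3 fell with yijin, 1 with soshiho and 2 with schisandra, and 0 rose. SREBF1, the regulator of fatty acid synthesis, fell with yijin (-0.35 ± 0.058; adjusted p = 3.31e-05) and soshiho (-0.43 ± 0.071; 3.23e-05). The fatty acid enzymes SCD and FASN fell with yijin (both -0.34) and schisandra (-0.21 and -0.22). Among genes of SREBP control, SQLE, an enzyme of cholesterol synthesis, fell with yijin (-0.365), schisandra (-0.43) and soshiho (-0.16). SREBF2 fell with yijin (-0.23), and INSIG2, which holds SREBPs in the endoplasmic reticulum, rose with schisandra (0.27).

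Among 10 genes of sterol uptake and trafficking, NPC1, which carries cholesterol out of lysosomes, rose with yijin (0.20), soshiho (0.18) and schisandra (0.19). The sterol carrier STARD4 fell with yijin (-0.27 ± 0.061; edgeR adjusted p = 0.00244) and schisandra (-0.34 ± 0.060; 9.34e-05). Of 5 HDL genes, APOA1 (-0.28), LIPC (-0.32) and LIPG (-0.28) fell with yijin and LIPG fell with schisandra (-0.39). Of 5 other ABC lipid transporters tested, ABCG2 rose with yijin (0.51) and soshiho (0.54), ABCB4, the phosphatidylcholine exporter of bile, fell with soshiho (-0.41), and ABCA2 and ABCA7 rose with schisandra (0.29 and 0.33). CYP27A1, which makes 27-hydroxycholesterol, fell with yijin (-0.17), the 1 call among 4 oxysterol and bile acid enzymes.

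**Figure D5:**
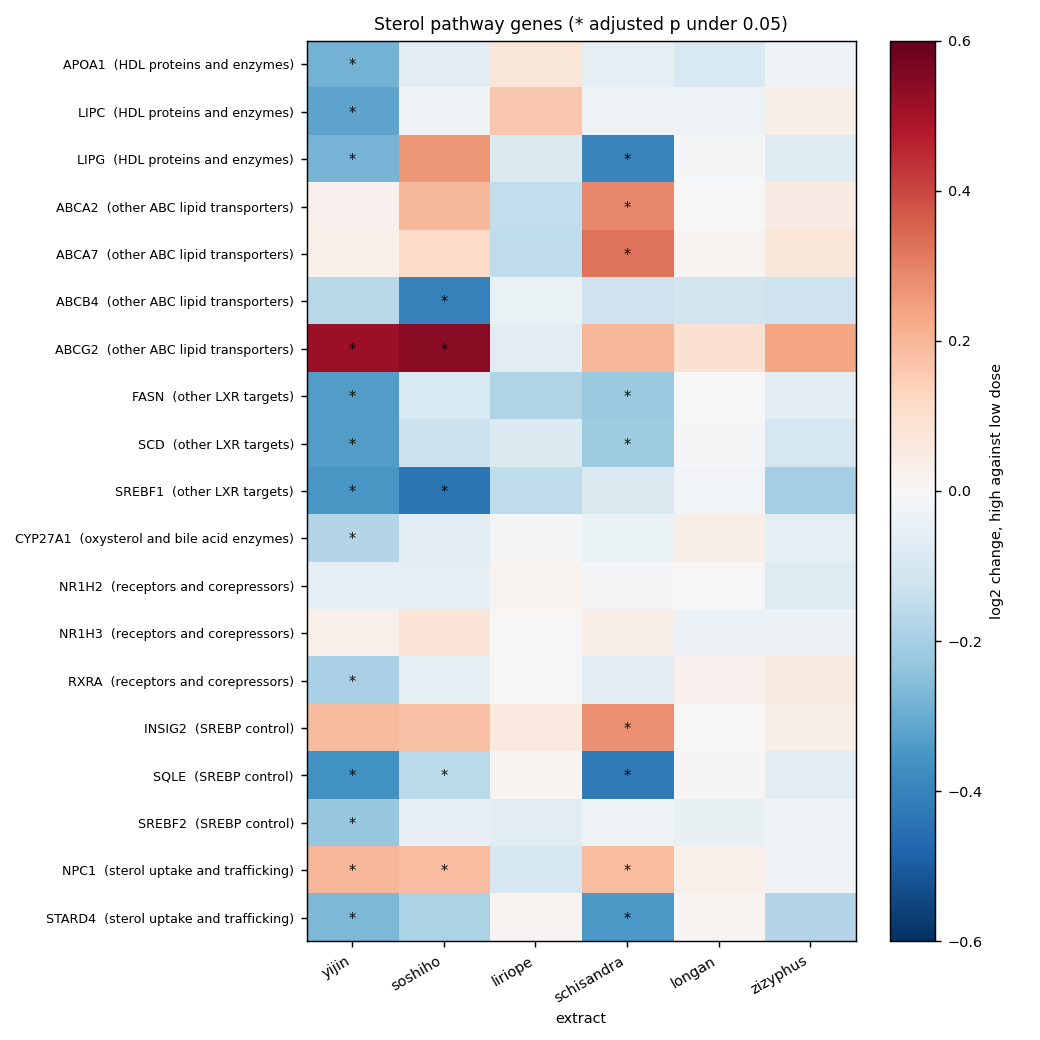
Log2 change (colour) for high against low dose of the named genes of the pathway lists (rows) by extract (columns); stars mark an edgeR adjusted p under 0.05. Stars lie in the yijin, soshiho and schisandra columns; NR1H3 and NR1H2 have none.

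As a description of pattern over the 19 group means of log2(CPM + 1), which share libraries and scaling, the genes most like each member among 10723 were listed by Pearson's r. They were SLC26A2 for ABCA1 (r = 0.89), GABPB1-AS1 for ABCG5 (0.96), RBBP4 for ABCG8 (0.91), SGK1 for MYLIP (0.86), ZBED3 and STMN3 for LPCAT3 (0.87 each), USP53 for SMPDL3A (0.76) and TMEM53 for PLTP (0.95). ABCG5 and ABCG8 were not among each other's 3 most alike genes (r = 0.50 between them).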

How the data were processed

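RNA-seq was made with a directional kit and, per the submitters' processing notes, processed with FastQC 0.11.9, Trim Galore 0.6.5, STAR 2.7.3a and RSEM 1.3.3 on hg38; the annotation release and strand setting are not given in the sources used here. The authors deposited RSEM expected counts per Ensembl gene, not normalized, and 10.4% of values had a fraction. These were rounded to whole numbers. The members, gene lists and tests were chosen with earlier results of these data known. With edgeR 4.0.16 (R 4.3.3), 54 libraries of 19 groups were fitted together (filterByExpr by group, TMM scaling, quasi-likelihood test), and p-values were Benjamini-Hochberg adjusted over 16924 genes within each of 27 comparisons, 6 of them (low dose against vehicle) added after the data were seen. The test was tried on simulated counts first. CPM used TMM-scaled library sizes, and polygala and aucklandia were scaled over all 60 libraries, so vehicle values differ slightly between the scales. Alternatives were DESeq2 1.42.0 and its size factors, library size alone, no filter on low counts, only the groups compared, a replicate block, and leaving out libraries. Replicate numbers met the rule for pairing (each correlation above 0.1) in zizyphus medium against low dose (0.156 to 0.287) and schisandra low dose against vehicle (0.162 to 0.319). Genes were named as members, or as genes of the pathway lists called in high against low dose. Named besides these were the receptors and the opposite-strand genes, which were named after their values were seen. Some genes of the pathway lists enter the counts but are not reported here by name.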

Additional observations from a re-analysis of the deposited data

How the results depend on the processing

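No called value changed direction under the alternatives run. With 1 library per dose and library size alone, uncalled polygala differences did: ABCG5 against vehicle at the high dose was 0.12 (-0.20 with TMM), and at medium against low dose ABCG5 was 0.12 (-0.03) and ABCG8 0.09 (-0.06), on the log2(CPM + 1) scale. DESeq2's size factors left all 101 results on the same side of the threshold. Counts of members called that moved by over 1.5 times were as follows, smaller moves after them, and the cause was not tested. Without the filter on low counts they were 1 for soshiho and 1 for schisandra at high against low dose (ABCA1 in both, with MYLIP and ABCG8 lost for soshiho), 1 for yijin, soshiho and longan at the high dose against vehicle, and 1 for liriope, schisandra and zizyphus at the low dose against vehicle. With only the groups compared they were 1 for yijin and 4 for soshiho at high against low dose, 0 for liriope and zizyphus at the high dose against vehicle, and 2 for soshiho, 1 for liriope and zizyphus and 0 for schisandra at the low dose against vehicle. The DESeq2 test called 1 for yijin and 0 for soshiho at high against low dose, and 1 for yijin at the high dose against vehicle. With library size alone they were 1 for yijin at high against low dose, 2 for liriope at the high dose against vehicle, and 2 for soshiho, 4 for schisandra and 1 for longan at the low dose against vehicle, and 2 polygala members passed 1.5-fold against vehicle. Without the 2 libraries that stood apart they were 1 for yijin at high against low dose (LPCAT3, edgeR adjusted p = 0.00584), and 2 for liriope at the high and 2 for soshiho at the low dose against vehicle. The replicate block gave 2 for liriope at the high dose against vehicle (ABCG8 added, edgeR adjusted p = 0.0485) and changed no other count of members. Smaller moves were, with library size alone, 3 for liriope and zizyphus at the low dose and 2 for zizyphus at the high dose against vehicle, and 5 aucklandia members past 1.5-fold against low dose and vehicle (LPCAT3 lost). They were also 2 for zizyphus without the filter and 2 for soshiho with only the groups compared, both at the high dose against vehicle, and 5 polygala members past 1.5-fold against low dose with a floor of 5 CPM. Leaving out 1 library gave 0 to 0 for soshiho and every other extract at high or medium against low dose and for the 3 differences of dose responses. Against vehicle at the high dose it gave 1 to 3 for yijin, 1 to 2 for soshiho, 0 to 2 for liriope, 1 to 2 for schisandra, 0 to 2 for longan and 1 to 3 for zizyphus. At the low dose it gave 0 to 1 for yijin and soshiho, 1 to 1 for liriope, and 1 to 2 for schisandra, longan and zizyphus. Without a soshiho library its dose has 1 left, assumed to vary like the other groups. With library size alone, the share of calls that were higher at high against low dose was 35.9% for yijin, 44.1% for soshiho and 29.1% for schisandra. Genes called of all tested at high against low dose were 207 for liriope, 63 for longan and 79 for zizyphus without the filter (5, 3 and 6 with it), and 1707 for soshiho and 132 for schisandra with only the groups compared (860 and 1240 with all). ABCG1, with 37 counts in all 60 libraries, allows no comparison.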
